A study of Mus musculus with 14 samples.

Results

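The members are 9 genes chosen by name, the ligands *Vegfa*, *Vegfb*, *Vegfc* and *Pgf*, the receptors *Kdr*, *Flt1* and *Flt4*, and the co-receptors *Nrp1* and *Nrp2*. All 9 are listed among the 28316 genes of the retina counts and the 26528 genes of the brain counts. Their unique molecular identifiers (UMIs) were summed per cell type label and library and are given as CPM, scaled to the total UMIs of that label and library. The comparisons ask which labels carry the ligands, which carry the receptors, and how both differ between control and CKO libraries. UMIs were read near the 3′ end of transcripts and are not scaled by transcript length, so levels are compared between labels and libraries and not between genes.

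Secreted VEGF ligands act on tyrosine kinase receptors, with neuropilins as co-receptors. In the retina, VEGF made by glia and neurons guides the growth of vessels, and endothelial cells carry the receptors. Neuropilins also bind semaphorins, so their transcripts in neurons need not concern VEGF.

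Nuclei of mouse retina and of brain vessel preparations were profiled by single-nucleus RNA sequencing. CKO libraries come from *Cdh5CreER;Tgfbr1CKO/-* mice, in which 4-hydroxytamoxifen (4HT) given at P3 to P5 activates Cre in endothelial cells, and tissue was taken at P14. Control libraries are labelled WT. The paper gives the genotype of its phenotypically wild-type control retinas as typically *Cdh5CreER;Tgfbr1CKO/+* or *Cdh5CreER;Tgfbr2CKO/+*. The 4HT days are stated for the CKO mice, and whether the control mice received 4HT is not given. The retina has 1 control library and 11 CKO libraries, and the brain has 1 of each, each made from 2 brains.

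The retina counts hold 77676 nuclei with 257539046 UMIs under 11 labels, none of them endothelial. Depth ran from 90449 UMIs in 104 nuclei (CKO 4) to 55803724 UMIs in 18862 nuclei (CKO 5), with 30989702 UMIs in the 11513 nuclei of the control. The members received 8976 UMIs in the control and between 61 (CKO 4) and 22315 (CKO 5) in the CKO libraries. A label was compared in a library that gave it at least 20000 UMIs. In the brain, 21 labels hold 31324 nuclei, with 54636 member UMIs for the control and 41460 for the CKO library. Intervals on single values are exact Poisson 95% intervals and cover counting error only.

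The targeted gene *Tgfbr1* was at 89.0 CPM in the control retina and between 71.4 and 87.0 CPM in the CKO libraries other than CKO 4, which had 365 CPM at its low depth. In the brain it was at 36.5 CPM (control) and 26.2 CPM (CKO). UMIs near the 3′ end do not test the deletion, and most of these nuclei are not endothelial. The brain libraries also differ in sex-linked transcripts, with *Xist* at 1963 CPM (control) and 1.29 CPM (CKO) and *Uty* at 64.5 and 133 CPM. The control of 2 brains thus held transcripts of both kinds, and sex and genotype cannot be told apart there. In the retina *Xist* was at 6779 CPM in the control, between 5577 and 6823 CPM in CKO 1, 2, 4 and 7, and at most 12.9 CPM in the others.

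The ligands had different retinal sources. *Vegfa* was highest in Müller glia (MG), *Vegfc* in glycinergic amacrine cells (Gly_AC), and *Vegfb* and *Pgf* were low in every label. *Vegfa* averaged 1124 ± 352 CPM (SD over libraries) in MG, which gave 51.7% of its UMIs, against 288 ± 232 CPM in astrocytes, 134 ± 31.8 CPM in horizontal cells (HC), 113 ± 29.9 CPM in rod bipolar cells (RBC) and 107 ± 28.0 CPM in cone bipolar cells (CBC). Photoreceptors were lower, with 56.6 CPM in cones and 4.02 CPM in rods. In MG *Vegfa* was above its level in astrocytes by a mean log2 difference of 2.17, in 9 of 10 libraries (exact sign-flip p 0.00391, adjusted 0.0121), the exception being the control. The step from CBC to Gly_AC was 0.41 and held in 10 of 11 libraries (exact adjusted p 0.0105), and that from astrocytes to HC did not pass (exact adjusted p 0.0571).

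*Vegfc* averaged 122 ± 31.2 CPM in Gly_AC, which gave 78.5% of its UMIs, and 36.7 ± 34.6 CPM in astrocytes. It was at or under 15.1 CPM in the other labels, 0.0757 CPM in rods and 0 in cones. The step from Gly_AC to astrocytes, which had 43 *Vegfc* UMIs in all, was 1.77 on the log2 scale in 9 of 10 libraries (exact sign-flip adjusted p 0.0121). GABAergic amacrine cells (GABA_AC), the other amacrine label, had 9.74 CPM, so the *Vegfc* signal of the amacrine cells lay mostly in the glycinergic label. *Vegfb* ran from 2.80 CPM in rods to 9.72 CPM in GABA_AC, and *Pgf* reached 4.95 CPM in astrocytes and 2.03 CPM in MG.

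Among the receptors, *Kdr* and *Flt1* were highest in MG, the label that also had the most *Vegfa*. *Kdr* averaged 380 ± 93.9 CPM in MG (65.8% of its UMIs), 53.5 CPM in astrocytes and 37.7 ± 8.39 CPM in Gly_AC. *Flt1* averaged 925 ± 205 CPM in MG (89.8% of its UMIs), 67.2 CPM in astrocytes and 43.6 CPM in HC. The steps from MG to astrocytes were 3.05 for *Kdr* and 3.94 for *Flt1* on the log2 scale, each in 10 of 10 libraries (exact sign-flip adjusted p 0.00799 for both). *Flt4* was highest in cones, at 12.9 ± 3.10 CPM from 136 UMIs, above HC, with 11 UMIs, by 2.96 in 10 of 11 libraries (exact adjusted p 0.00799). In the other labels *Flt4* was at most 1.76 CPM.

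MG nuclei with UMIs of these members were common. *Flt1* had a UMI in 82.7% of the 3072 MG nuclei, *Kdr* in 62.1% and *Vegfa* in 82.9%, at a median depth of 3354 UMIs. In rods, with a median depth of 1064 UMIs, the shares were 0.0609%, 0.346% and 0.575%. Cones, at a median of 2169.5 UMIs, had 0.0628% for *Flt1*, 0.691% for *Kdr* and 14.4% for *Vegfa*, so the shares in MG lay above those in photoreceptors, least so for *Vegfa* in cones.

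Endothelial transcripts in MG were few beside those in endothelial nuclei. The sum of 12 endothelial marker genes in MG ran from 15.2 CPM in the control to 46.8 CPM in CKO 6, with a median of 21.9 CPM, and the same sum was 13253 CPM in control brain endothelial cells (ECs). *Pecam1* made up 9.63 CPM of it in pooled MG, with *Cldn5* at 0.279 CPM and *Cdh5* at 0.209 CPM. Over the compared libraries, 2796 MG nuclei (91.1%) had no endothelial marker UMI, 380 of them in the control. In these nuclei *Flt1* was at 966 CPM in the control and 799 to 1567 CPM in the CKO libraries. *Kdr* was at 370 CPM in the control and 282 to 550 CPM in the CKO libraries.

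The co-receptors were spread over more labels. *Nrp1* averaged 322 ± 224 CPM in immune cells, where CKO 4 had 976 CPM, then 223 ± 67.9 CPM in retinal ganglion cells (RGC), 186 ± 24.1 CPM in MG and 98.7 ± 19.9 CPM in Gly_AC. The step from immune cells to RGC did not pass (log2 0.37, 7 of 12 libraries, exact sign-flip adjusted p 0.461). The step from RGC to MG was 0.32 in 9 of 11 libraries (exact sign-flip adjusted p 0.0160), and that from MG to Gly_AC was 0.93 in 11 of 11 (exact adjusted p 0.00628). *Nrp2* averaged 160 ± 55.4 CPM in immune cells, 158 ± 23.3 CPM in Gly_AC, 116 ± 25.4 CPM in RGC, 62.2 ± 12.1 CPM in CBC and 58.3 ± 4.27 CPM in GABA_AC. The step from immune cells to Gly_AC did not pass (log2 0.016, 8 of 11 libraries, exact adjusted p 0.987). The steps from Gly_AC to RGC and from RGC to CBC were 0.50 and 0.85, each in 11 of 11 libraries (exact adjusted p 0.00628). *Nrp2* was low in MG, at 4.76 CPM, while *Nrp1* was present in both labels, with 22.3% of its UMIs in Gly_AC and 19.2% in MG.

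Neighbouring labels in the rank order of a member had an adjusted p under 0.05 in 39 of 90 pairs (exact sign-flip test, Benjamini-Hochberg over all pairs), 32 in the direction of the order and 7 against it. The order was set by mean CPM of the same libraries, so the direction is largely given by the ranking. Each of those 7 had at most 10 UMIs in one of the labels, and *Pgf* in HC and immune cells passed with 0 UMIs in both, so where UMIs are few the 0.5 UMIs added carry depth into the difference. Among the 38 pairs with at least 50 UMIs in both labels, 13 passed, with 0 against the order. With the kit version 4 libraries alone the count was 0 by the exact sign-flip test, where 37 pairs had an unadjusted p under 0.05 and the smallest p was 0.0156. For 6 of 9 members the retinal label with the highest level also gave the most UMIs, the exceptions being *Pgf*, *Nrp1* and *Nrp2*.

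**Figure D1:**
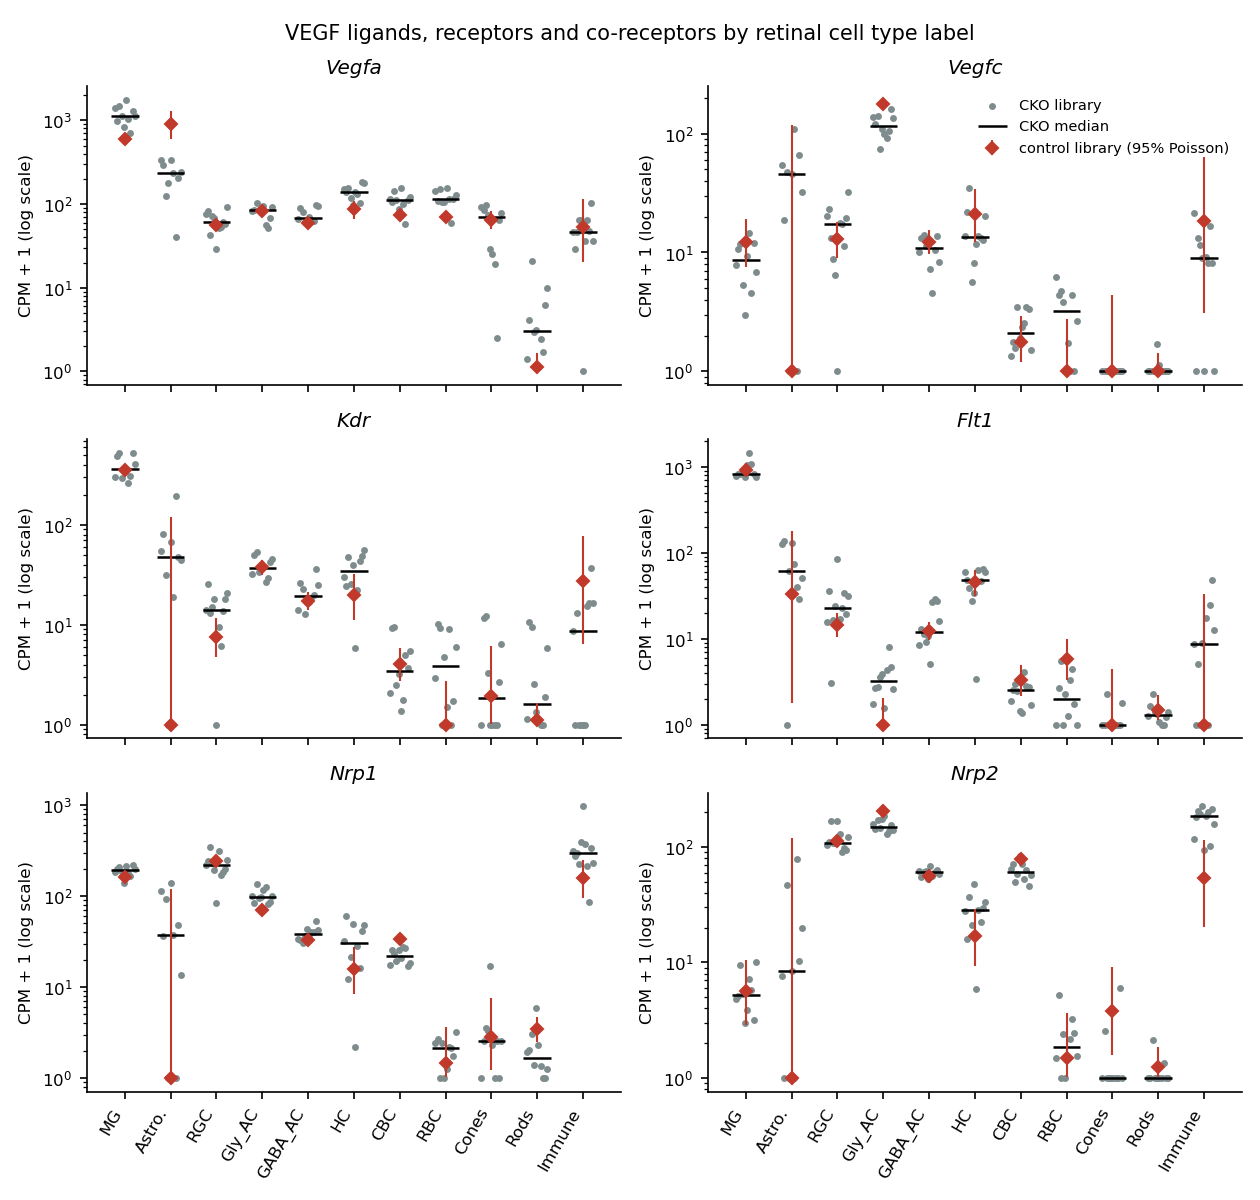
Levels of 6 members in the 11 retinal labels, with CPM plus 1 on a log axis. Grey points are CKO libraries, the black line is their median and the red diamond is the control with its 95% Poisson interval. *Vegfa*, *Kdr* and *Flt1* peak in MG, *Vegfc* in Gly_AC, and *Nrp1* and *Nrp2* in several labels.

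Control against CKO in the retina showed no member with an adjusted difference in edgeR. A set of 11 member and label pairs had the control outside the whole CKO range, among them *Vegfa* in MG (lower in the control) and *Vegfa* in astrocytes, *Vegfc* in Gly_AC and *Nrp2* in Gly_AC (higher in the control). With 1 control library, edgeR takes its spread from the CKO libraries. The number of mice per retina library is not given, so p-values measure the spread between libraries.

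Of 58 tested pairs, 0 passed an adjusted p of 0.05 in edgeR, where 0.00317% of all 126041 tests passed, and 6 had an unadjusted p under 0.05, against 3.22% of all tests. DESeq2 called 1 pair, against 0.886% of all tests. The control lay outside the CKO range in 11 pairs, with CKO above it in 7 and below it in 4, against 11.8% of all tests. The shares among members were thus somewhat above those of all genes for unadjusted p-values and range, and the calls were almost none.

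*Vegfa* in MG was at 599 CPM (561 to 639) in the control and at 708, 1120.5 and 1767 CPM (lowest, median, highest) in 10 CKO libraries, the highest being CKO 5. The edgeR log2 difference was 0.90 (SE 0.41, p 0.0452, adjusted 0.815), with 10 of 10 CKO libraries above the control. The adjusted p ranged from 0.395 to 1 and the log2 difference from 0.73 to 0.94 over the alternatives. The 3 CKO libraries of the control's own batch had 827 to 1414 CPM, all above it. In MG nuclei without an endothelial marker UMI, *Vegfa* was at 609.8 CPM in the control and 746 to 1799.7 CPM in the CKO libraries. Of all genes tested in MG, 9.17% had every CKO library above the control.

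In astrocytes the order was the opposite. *Vegfa* was at 895 CPM (595 to 1294) in the control, from 28 UMIs in 12 nuclei, and at 38.99, 235 and 335 CPM in 9 CKO libraries with 6 to 61 nuclei. The edgeR log2 difference was -1.69 (SE 0.58, p 0.0111, adjusted 0.470), with 9 of 9 CKO libraries below and an adjusted p between 0.176 and 1 over the alternatives. The lowest value, CKO 7, rests on 1 UMI. A *Vegfa* UMI was found in 10 of the 12 control nuclei (83.3%) and in 9.09% (CKO 7) to 84.6% (CKO 9) of those of the CKO libraries. Depth differed, with 31274 UMIs over the 12 control nuclei, 25646 over 11 in CKO 7 and 160369 over 13 in CKO 9. Without the nucleus with the most UMIs the control level was 799 CPM. Both CKO libraries compared from the control's batch, at 179 and 333 CPM, were lower. The astrocyte label of the control also had 128 CPM of endothelial markers (4 UMIs) against 0 to 39.9 CPM in CKO libraries. Without the nuclei that carried them, *Vegfa* was at 989.6 CPM in the control and 38.99 to 313 CPM in the CKO libraries. MG markers summed to 3041 to 5319 CPM in the astrocyte label and 3445 to 4855 CPM in MG, so this list does not tell the labels apart, while astrocyte markers summed to 1047 to 3528 CPM and 374 to 581 CPM. The part of MG transcripts in the *Vegfa* of astrocytes was not tested. Every CKO library was below the control for 14.9% of the genes tested in astrocytes.

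*Vegfa* lay just outside the CKO range in 3 further labels. In HC it was at 85.4 CPM in the control and 95.8, 138 and 181 CPM in the CKO libraries (edgeR p 0.200), and in GABA_AC at 58.6 against 60.4, 66.5 and 95.02 CPM (edgeR p 0.490). In rods it was at 0.116 CPM (1 UMI) against 0.137, 2.02 and 20.1 CPM. Rod values followed the kit, with 0.137 to 2.09 CPM in kit version 4 CKO libraries and 3.16 to 20.1 CPM in those of version 5, and the control was made with version 4.

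Over all retinal nuclei *Vegfa* was at 76.0 CPM in the control and at 11.1, 127 and 169 CPM in the CKO libraries, 10 of 11 above, with a log2 difference of 0.47 (exact permutation p 0.5). Without CKO 4 and 5 the difference was 0.69 with 9 of 9 above (exact p 0.1, the smallest possible). With all compared labels of a library weighted alike the difference was -0.30, with the control at 185 CPM and 5 of 11 CKO libraries above. CKO 4 had only RGC (27.7 CPM) and immune cells (0 CPM) there. It was the lowest, at 13.8 CPM against a CKO median of 180 CPM. *Vegfc* over all nuclei was at 24.5 CPM against 0, 18.4 and 22.9 CPM, with 0 of 11 CKO libraries above (exact p 0.167).

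In Gly_AC, *Vegfc* and *Nrp2* were both higher in the control than in any CKO library. *Vegfc* was at 178 CPM (164 to 192) against 73.6, 114 and 161 CPM, an edgeR log2 difference of -0.82 (SE 0.23, p 0.00450, adjusted 1.00) with 10 of 10 CKO libraries lower. DESeq2 gave an adjusted p of 0.0308, and over all alternatives the adjusted p ran from 0.0308 to 1 and the log2 difference from -0.83 to -0.71. *Nrp2* was at 205 CPM (191 to 221) against 129, 149 and 184 CPM, a log2 difference of -0.43 (SE 0.16, edgeR p 0.0223), also lower in 10 of 10. In the control's batch *Vegfc* was at 73.6 to 137 CPM and *Nrp2* at 145 to 174 CPM. *Nrp1* in the same label was lower in the control, at 69.6 CPM (61.1 to 78.8) against 81.2, 98.0 and 136 CPM (edgeR p 0.0699). *Flt1* was not seen in control Gly_AC (0 UMIs, which allows up to 0.848 CPM) and was at 0.552, 2.20 and 7.09 CPM in the CKO libraries. At that bound the control would lie inside the CKO range, so this pair is outside it by the measured value only. In Gly_AC, 4.8% of genes tested had every CKO library below the control and 8.78% had every one above.

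The receptors in MG did not separate the groups. *Kdr* was at 356 CPM (327 to 387) in the control and 259.7, 363 and 525.8 CPM in the CKO libraries, 6 of 10 above. With the kit as covariate the edgeR log2 difference was -0.21 (p 0.283), and without it 0.0066. *Kdr* in MG differed by kit among the CKO libraries, with 259.7 to 364 CPM in 6 libraries of version 4 and 404 to 525.8 CPM in 4 of version 5. *Flt1* was at 924 CPM (876 to 974) against 763, 827 and 1448 CPM, 3 of 10 above (edgeR log2 0.09, p 0.764). In the control's batch *Kdr* was at 292 to 363 CPM and *Flt1* at 763 to 882 CPM.

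The remaining pairs outside the range concern co-receptors. *Nrp2* in immune cells was at 52.4 CPM (19.2 to 114, 6 UMIs) in the control and 93.0, 185 and 224 CPM in 11 CKO libraries (edgeR log2 1.49, SE 0.69, p 0.0451, adjusted 0.997, 11 of 11 above, adjusted p 0.472 to 1 over the alternatives). *Nrp1* in CBC was at 32.5 CPM (27.8 to 37.7) against 16.2, 20.97 and 26.8 CPM (edgeR p 0.0653). Summed immune markers in that label were at 2298 CPM in the control and 1356 (CKO 8) to 8645 CPM (CKO 4) in the CKO libraries, and the part of a different mix of immune cells in the *Nrp2* value was not tested.

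**Figure D2:**
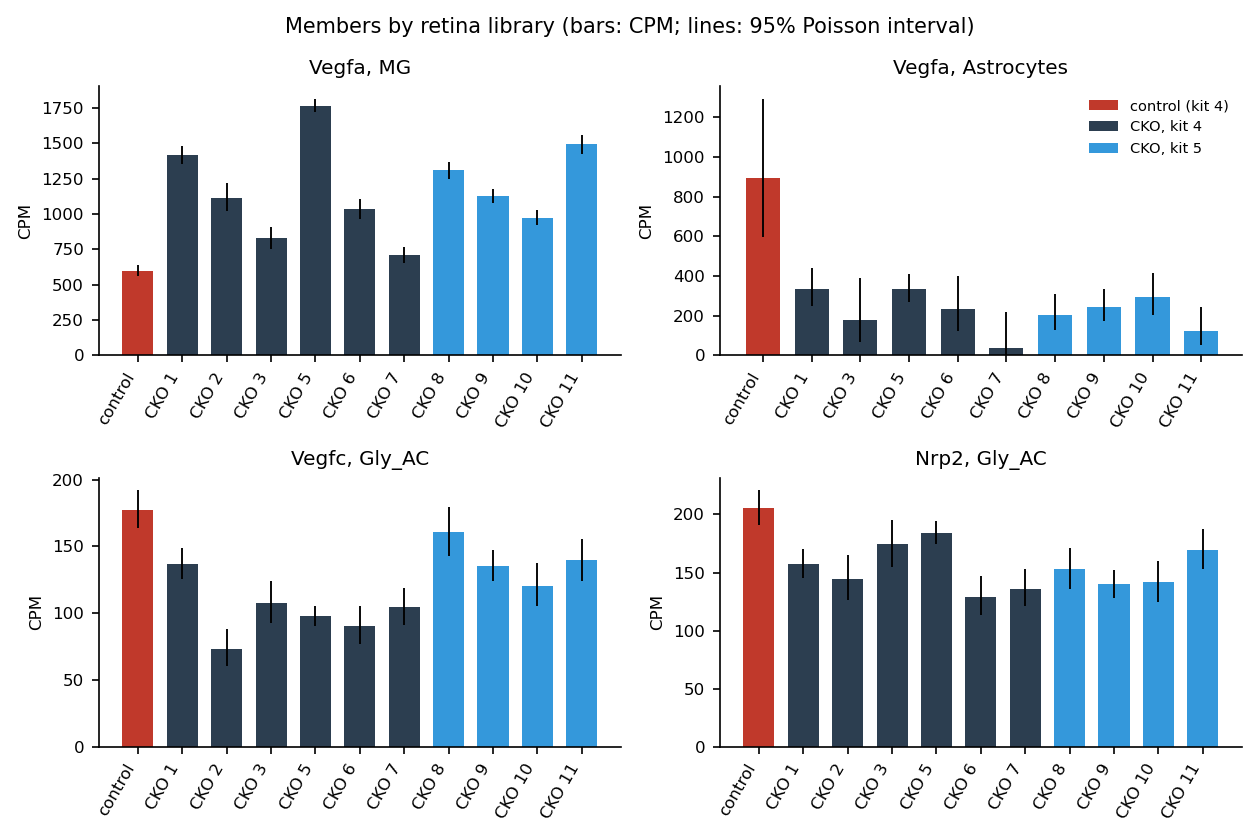
*Vegfa* in MG and in astrocytes, and *Vegfc* and *Nrp2* in Gly_AC, as CPM per library with 95% Poisson intervals. Red is the control, dark bars are CKO libraries of kit version 4 and blue bars those of version 5. The control is lowest for *Vegfa* in MG, at 599 CPM, and highest in the other panels.

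Genes that act with the members were read in MG and in astrocytes as 6 lists. In MG, 0 genes of any list passed adjustment in edgeR, where 1 of 12992 genes did and 782 had a p under 0.05. Genes of receptor signalling had 3 of 46 with a p under 0.05 (median log2 0.04) and genes that restrain the receptors 4 of 20 (0.02). Genes that VEGF induces in ECs had 2 of 12 (0.96), and hypoxia-inducible factor (HIF) genes 6 of 29 (0.23). Whether the VEGF-induced genes of ECs respond to VEGF in MG was not tested. Semaphorins and plexins had 0 of 8 with a p under 0.05 (median -0.10), and the genes of other VEGF family functions 0 of 3 (0.17). The median of all MG genes was 0.03. Log2 differences were above 0 for 9 of 12 VEGF-induced genes and 23 of 29 HIF genes, against 6943 of all 12992 genes. They were above 0 for 25 of 46 signalling genes, 10 of 20 restraint genes, 4 of 8 semaphorins and plexins and 2 of 3 other family genes.

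The genes of smallest p in each list were mostly lower in the control. In MG the HIF gene *Ldha* was at 86.7 CPM in the control and 125, 170.5 and 239 CPM in the CKO libraries (edgeR log2 0.88, p 0.00934, adjusted 0.702, 10 of 10 above). *Egln3* was at 0.662 (1 UMI) against 1.63, 6.13 and 15.5 CPM (edgeR p 0.0150) and *Ankrd37* at 5.29 against 7.12, 16.5 and 23.9 CPM (edgeR p 0.0180). Of the VEGF-induced genes, *Unc5b* was at 18.5 against 27.9, 38.2 and 64.1 CPM (edgeR p 0.00834), *Nr4a1* at 2.65 against 7.12, 15.6 and 50.5 CPM (edgeR p 0.00985) and *Plat* at 19.2 against 17.9, 34.2 and 61.6 CPM (edgeR p 0.0639). The signalling genes *Nfatc1*, *Pak1* and *Map2k1* and the restraint genes *Myo1c*, *Spry1* and *Spry2* each had 10 of 10 CKO libraries above the control, with edgeR p-values from 0.0114 to 0.0298. Among semaphorins and plexins *Sema3b* and *Plxna4* also had 10 of 10 above, and *Sema3e*, with 306 against 230.4, 284 and 427 CPM, had 4 of 10 (edgeR p 0.0771). *Adamts3*, *Pdpn* and *Prox1* had 7 to 9 of 10 above. None of these passed adjustment, and being chosen by p they do not stand for their lists.

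In astrocytes 0 of 4340 genes passed in edgeR, 412 had a p under 0.05, DESeq2 called 12, and the median log2 difference was 0.38, or 0.00 with genes at 0 in the control set at their bound. Genes of receptor signalling had 4 of 30 with a p under 0.05 (median 0.64, at the bound 0.29), those that restrain the receptors 2 of 13 (0.28), VEGF-induced genes 0 of 2 (0.91) and HIF genes 1 of 10 (0.24). Semaphorins and plexins had 0 of 4 (-0.39) and the genes of other family functions 2 of 4 (2.98, at the bound -0.05). The log2 difference was above 0 for 7 of 10 HIF genes, against 2710 of all 4340 genes. *Ldha* had no UMI in the control, which allows up to 95.9 CPM, and was at 72.2, 179.7 and 243 CPM in the CKO libraries. *Ndrg1* was higher in 8 of 9 (edgeR p 0.164), and *Epas1* was at 512 CPM against 156, 271 and 410 CPM (edgeR p 0.137). Of the other lists, *Prkca* was at 384 against 939, 1403 and 3470.3 CPM (edgeR p 0.00671) and *Ptprj* at 3517 against 1609, 2028 and 2323 CPM (edgeR p 0.0487). *Adam10*, *Adamts3* and *Pdpn* had no UMI in the control and UMIs in 9 of 9 CKO libraries. *Cbl*, *F3*, *Mmp14*, *Plxna4*, *Plxna2*, *Sema3a* and *Prox1*, the remaining genes of smallest p, had edgeR p-values from 0.0788 to 0.820.

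In the brain the receptors lay in ECs and *Vegfa* in astrocytes. *Vegfa* was at 388 CPM in astrocytes (399 in the control, 358 in the CKO library), which gave 31.6% of its UMIs, then at 147 and 168 CPM in the label CP_8. GABA_22 had 103 CPM in the control and 67.1 CPM (3 UMIs) in the CKO library, and oligodendrocyte precursors (OPCs) 51.9 and 124 CPM, so their order differed between the libraries. ECs gave 94.0% of the UMIs of *Kdr*, 91.1% of those of *Flt1* and 93.0% of those of *Flt4*, at 1229, 3312 and 70.8 CPM. *Kdr* had a UMI in 80.9% of 5419 EC nuclei and *Flt1* in 95.3% at a median depth of 1429 UMIs, against 0% and 0.402% in Glut_1, a label of glutamatergic neurons with a median of 2233 UMIs. *Vegfa* had a UMI in 33.5% of brain astrocytes at a median of 867 UMIs, in 4.95% of Glut_1 nuclei and in 0.683% of EC nuclei.

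The other members had further sites. *Vegfc* was highest in vascular smooth muscle cells (vSMCs), at 273 CPM, with 171 CPM in Glut_5 and 121 CPM in ECs. The vSMC label held endothelial markers at 45.8% (control) and 57.4% (CKO) of the EC level. *Kdr* was there at 28.2% and 49.8% of its EC level, and *Vegfc* at 202% and 289.7%. The part of endothelial transcripts in these vSMC levels was not tested. *Pgf* was highest in pericytes at 76.3 CPM (10 UMIs, all in the control), and *Vegfb* in Glut_20 at 46.8 CPM. The order of labels for the co-receptors differed between the libraries. *Nrp1* was at 1439 CPM in control microglia, 786 CPM in Glut_17 and 598 CPM in ECs, and in the CKO library at 68.3 CPM (1 UMI), 856 CPM and 563 CPM. *Nrp2* was at 279 CPM in the control label glia, 166 CPM in Glut_17, 124 CPM in Glut_1 and 113 CPM in ECs, while in the CKO library ECs had 334 CPM and glia 210.3 CPM.

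In brain ECs, *Nrp2* was higher and *Flt4* lower in the CKO library, and the other members with enough UMIs, apart from *Vegfb*, differed by less than 1.5-fold. Each genotype has a single brain library, so the difference has no replicate check, and intervals compare these libraries and not the genotypes. A ratio counted at 1.5-fold with at least 50 UMIs. Of 8 members tested, 2 were higher, against 21.4% of 11351 genes, and 1 was lower, against 9.32%. The median log2 ratio of all genes was 0.14, 0.04 with TMM scaling and 0.41 for means of per-nucleus CPM.

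*Nrp2* went from 113 to 334 CPM (658 and 2287 UMIs), a ratio of 2.94 (2.70 to 3.21). *Vegfb* went from 0.517 to 7.01 CPM, from 3 and 48 UMIs, a ratio of 13.5 (4.37 to 68.0). *Flt4* went from 96.9 to 48.7 CPM, a ratio of 0.503 (0.438 to 0.577), and these 3 were past the limit under TMM scaling too, at 2.74, 12.6 and 0.468. *Flt1* was at 3982 and 2745 CPM, a ratio of 0.689 (0.676 to 0.703), which passed the limit under TMM scaling (0.641). *Kdr* was at 1323 and 1150.4 CPM (0.870, 0.843 to 0.897), *Nrp1* at 598 and 563 CPM (0.941, 0.899 to 0.986), *Vegfc* at 131 and 112 CPM (0.859, 0.776 to 0.951) and *Pgf* at 7.41 and 10.4 CPM (1.40, 0.944 to 2.09). *Vegfa* had 24 and 22 UMIs and was not tested. For means of per-nucleus CPM *Flt1* (0.582), *Vegfc* (0.597) and *Pgf* (2.68) were past the limit as well, and *Vegfb* was at 46.3.

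Pericyte transcripts were common in EC nuclei. A pericyte marker UMI was present in 85.4% of 2475 control and 95.6% of 2944 CKO EC nuclei, with the summed markers at 8548 and 7276 CPM and *Rgs5* the highest at 5197 CPM. Nuclei without one, 362 control and 131 CKO nuclei, were shallower, with medians of 504 and 444 UMIs. In these *Nrp2* was at 357 and 929 CPM, a ratio of 2.60 (1.86 to 3.63), *Flt1* at 7734 and 3145 CPM (0.407, 0.354 to 0.466) and *Kdr* at 0.635 (0.478 to 0.833). *Vegfc* had 119 and 3 UMIs there, a ratio of 0.0749 (0.0152 to 0.224). *Flt4*, with 27 and 6 UMIs, had a ratio of 0.660 (0.223 to 1.63), which does not settle its direction. *Flt1* and *Kdr* were past the limit in these nuclei, where lower ratios were common, with 411 of 1077 genes lower, 235 higher and a median log2 ratio of -0.31.

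Arterial and venous EC nuclei were picked by at least 2 UMIs of the marker genes of one kind and 0 of the other, which gave 271 arterial and 199 venous control nuclei, and 283 and 260 of the CKO library. Exactly 2 such UMIs were found in 106 and 101 of the arterial and 84 and 113 of the venous nuclei. *Nrp2* in arterial nuclei was at 45.0 and 256 CPM, a ratio of 5.69 (3.29 to 10.5), and in venous nuclei at 255 and 468 CPM, a ratio of 1.84 (1.37 to 2.50). The arterial level was 0.177 of the venous one in the control (0.0934 to 0.314) and 0.547 in the CKO library (0.423 to 0.703). With at least 1 marker UMI these ratios were 0.295 and 0.621, and with at least 3 they were 0.135 and 0.436. In all other EC nuclei, which can include nuclei with UMIs of both kinds, *Nrp2* was at 111 and 331 CPM, a ratio of 2.98. The picked nuclei were shallower than these. Median UMIs in the control were 859 (arterial), 891 (venous) and 1544 (other), and in the CKO library 1060, 1032 and 1688. *Nrp2* was thus higher in the CKO library in all 3 groups, and the ratio of the arterial to the venous level was higher too.

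*Flt1* was higher in arterial than in venous nuclei in both libraries, by 1.74 and 1.64 times, and lower in the CKO library in arterial (0.613), venous (0.648) and other nuclei (0.700). *Vegfc* was at 291 and 248 CPM in arterial nuclei and at 109 and 28.5 CPM in venous nuclei (27 and 10 UMIs, ratio 0.262, 0.113 to 0.558). Arterial nuclei thus had 2.67 times the venous *Vegfc* level in the control (1.73 to 4.25) and 8.70 times in the CKO library (4.54 to 18.7). With at least 1 marker UMI it was 2.97 and 6.87 times. With at least 3 it was 3.01 and 12.6 times, the latter (5.20 to 39.9) from 5 venous CKO UMIs. *Flt4* was at 129 and 54.1 CPM in arterial nuclei and 129 and 62.8 CPM in venous ones. *Kdr* had arterial to venous ratios of 1.11 and 1.02.

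**Figure D3:**
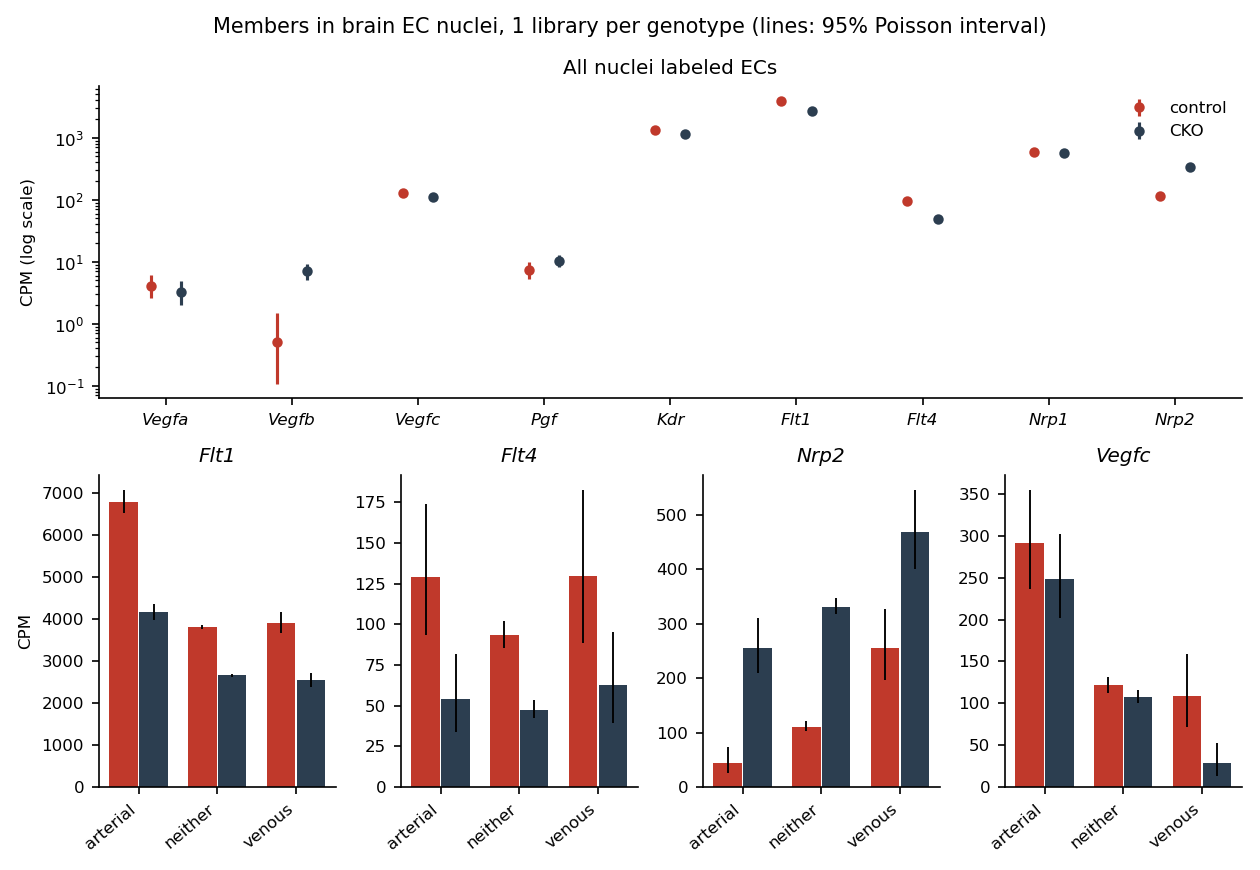
Upper panel, CPM of the 9 members in brain EC nuclei of the control and the CKO library on a log axis. Lower panels, CPM of *Flt1*, *Flt4*, *Nrp2* and *Vegfc* in arterial, venous and other EC nuclei. Lines are 95% Poisson intervals. *Nrp2* is higher in the CKO library in each group of nuclei, from 45.0 to 256 CPM in arterial ones.

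In the brain labels other than ECs, 64 member and label pairs in 19 of 20 labels had enough UMIs. The ratio was at least 1.5 in 6, against 8.83% of 96876 tests, and at most 1 over 1.5 in 14, against 15.2%. The higher pairs were *Nrp2* in vSMCs (2.01, 1.37 to 2.90) and CP_8 (1.73), *Kdr* in vSMCs (1.54), *Flt1* in pericytes (3.71, 82 and 23 UMIs), *Vegfa* in OPCs (2.40, 27 and 26 UMIs) and *Vegfc* in CP_6 (1.59). TMM scaling moved the median log2 ratio of all genes from 0.06 to -0.12 in vSMCs and from -0.47 to -1.93 in pericytes. The ratios in these labels are thus lower under it. Summed endothelial markers in the vSMC label were at 6071 CPM (control) and 6584 CPM (CKO), and their part in the *Nrp2* and *Kdr* ratios was not tested. The lower pairs included *Nrp1* in microglia, from 115 UMIs (1439 CPM) to 1 UMI (68.3 CPM), a ratio of 0.0475 (0.00119 to 0.270), *Vegfa* in the label glia (0.491) and in Glut_14 (0.371), *Nrp2* in astrocytes (0.556), and *Vegfc* in 4 labels of glutamatergic neurons (0.267 to 0.663). The pericyte label had pericyte markers at 30350.0 and 16390 CPM and endothelial markers at 1855 and 760 CPM (226 and 7 UMIs), and under TMM scaling 1 of its 425 genes was higher, against 61 without. The microglia label held 129 and 11 nuclei, with summed immune markers at 8571 and 1571 CPM, so it had fewer immune transcripts in the CKO library. *Vegfa* in brain astrocytes, its main site, was not among them.

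The same 6 lists were read in brain ECs, where 2428 of 11351 genes were higher and 1058 lower. Genes of receptor signalling had 3 higher and 5 lower of 47 (median log2 ratio 0.10), genes that restrain the receptors 3 and 3 of 23 (-0.00), VEGF-induced genes 6 and 3 of 21 (0.43), and HIF genes 3 and 5 of 26 (-0.10). Semaphorins and plexins had 1 and 2 of 7 (-0.02), and other family genes 0 and 1 of 3 (-0.24). Under TMM scaling 1 restraint gene and 0 semaphorins or plexins were higher. The median of VEGF-induced genes was above that of all genes under TMM scaling too (0.33 against 0.04), and nearer to it for per-nucleus means (0.47 against 0.41).

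Single genes of the lists, named by their ratio, moved both ways in brain ECs. Of the signalling genes *Vav3* (2.93), *Ppp3ca* (1.85) and *Ppp3cb* (1.80) were higher, and *Hspb1* (0.504), *Plcg2* (0.476) and *Prkcb* (0.394) lower. Of the restraint genes *Ptpn2* (1.69), *Cblb* (1.53) and *Cdh5* (1.503) were higher, the last pair under the limit with TMM scaling (1.42 and 1.40), and *Myo1c* (0.630) and the receptor phosphatases *Ptprj* (0.583) and *Ptprb* (0.528) lower. Of the induced genes *Ptgs2* went from 3 to 54 UMIs, a ratio of 15.2 (4.94 to 76.2), *Egr3* (5.93) and *Nr4a1* (2.51) were higher, and *Nr4a2* (0.636), *Plat* (0.602) and *Igfbp3* (0.521) lower. The HIF genes thus did not move together either, with *Egln3* going from 2 to 65 UMIs, a ratio of 27.5 (7.32 to 232), *Ndrg1* (2.23) and *Pgk1* (1.96) higher, and *P4ha2* (0.535), *Ankrd37* (0.436) and *Pfkfb3* (0.154) lower. Among semaphorins and plexins *Sema3c* (0.435) and *Plxna4* (0.407) were lower and *Sema3a* higher (1.60 from 18 and 34 UMIs, and 1.49 under TMM scaling), with *Plxnd1* (1.49), *Sema3g* (1.25) and *Plxna2* (0.902) within the limit. *Lyve1* (0.376) was lower, and *Adamts3* (1.29) and *Vegfd* (0.847) were within the limit.

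Over the 11 retinal labels the genes with the pattern most like *Vegfa* were *Tcf3* (Pearson r 0.955), *Mmadhc* (0.940) and *Ggnbp1* (0.938). Over the 21 brain labels those most like *Kdr* were *Cldn5* (0.980), *Nos3* (0.979) and *Tpm4* (0.978), and those most like *Flt1* were *Zfp366* (0.978), *Nostrin* (0.974) and *Adgrf5* (0.971). In the brain *Kdr* and *Flt1* thus followed endothelial genes, and in the retina both were highest in MG, where *Cldn5* was at 0.279 CPM.

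By the GENCODE M39 annotation (GRCm39), *Vegfa* lies on chromosome 17 from 46327919 to 46343309, *Vegfc* on chromosome 8 from 54530257 to 54640131, and *Nrp1* on the same chromosome from 129085085 to 129231082. *Kdr* (76093487 to 76139884) and *Flt1* (147498414 to 147662826) both lie on chromosome 5. *Flt4* is on chromosome 11 from 49500090 to 49543582, *Nrp2* on chromosome 1 from 62742444 to 62857854, and *Pgf* on chromosome 12 from 85213409 to 85224564. *Vegfb*, on chromosome 19 from 6958447 to 6965127, overlaps *Trpt1* on the other strand.

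Promoters, taken as the 250 bases before the transcript start in RefSeq on GRCm38.p6, were available for 9 of 9 members. The ETS core GGAAGT, on either strand, was present in 19.7% of 32851 promoters and in 2 of the 11 promoters of members, those of *Kdr* and *Flt1*, a share close to that of all promoters. The HIF core ACGTG was present in 16.6% of promoters and in 1 of the 11, at a start inside the *Vegfa* gene, while the promoter at the start of that gene had 0 matches. The promoters of *Kdr* and *Flt1* are shown as the receptor promoters with the ETS core, 5′ to 3′ on the minus strand with the core in capitals, at chr5:75978456-75978705 for *Kdr* (core from 217 bases before the start, in reverse complement) and chr5:147726012-147726261 for *Flt1* (from 52 bases before the start).
Kdr: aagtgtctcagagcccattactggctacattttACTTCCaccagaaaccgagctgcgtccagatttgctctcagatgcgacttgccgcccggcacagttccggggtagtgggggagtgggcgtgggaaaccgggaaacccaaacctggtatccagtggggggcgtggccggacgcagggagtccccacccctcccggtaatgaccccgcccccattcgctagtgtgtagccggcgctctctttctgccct
Flt1: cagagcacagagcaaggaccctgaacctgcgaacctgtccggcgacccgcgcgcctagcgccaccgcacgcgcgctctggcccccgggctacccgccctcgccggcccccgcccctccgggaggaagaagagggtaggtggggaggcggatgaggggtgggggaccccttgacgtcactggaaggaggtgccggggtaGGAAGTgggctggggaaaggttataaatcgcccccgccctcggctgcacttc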

How the data were processed

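Single-nucleus RNA was profiled in 12 retina and 2 brain libraries. Per the labels and methods, the authors made UMI counts with PIPseeker, removed ambient RNA with CellBender and doublets with SOLO, assigned cell types with Seurat, and curated mixed nuclei by hand, with clusters taken out of CKO 4 and 5, which is why an alternative leaves those libraries out; the deposited counts and cell type labels were used as given. Mapping is described as mm10 in the labels and as GRCm39 in the methods, and only gene symbols were used from the counts.

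UMIs were summed per label and library and divided by the total of that label and library. In the retina, label and library sums of at least 20000 UMIs were kept, and a label needed 5 CKO libraries. Brain pairs needed 50 UMIs over both libraries, whatever the label sum. Control and CKO retina libraries were compared per label with edgeR 4.0.16 (quasi-likelihood, TMM, filterByExpr, kit version as covariate) and, as an alternative, DESeq2 1.42.0, in R 4.3.3, with Benjamini-Hochberg adjustment over all genes tested in a label. Labels were ordered with two-sided exact sign-flip tests over libraries with 0.5 UMIs added, and whole retinas compared by two-sided exact permutation. Brain ratios are conditional binomial with Clopper-Pearson 95% intervals. A count of 0 is taken to allow up to 3 counts. Scripts used Python 3.11.15 with numpy 2.4.6, scipy 1.17.1 and pandas 2.3.3, and were tested on simulated data. Genes named from a list are the 3 with the smallest p, or the 3 highest and 3 lowest ratios in brain ECs, and genes of like pattern had at least 1000 UMIs. Genes of like pattern to *Vegfa* in the brain, and some list genes in astrocytes, are not reported here. Members, gene lists and marker lists were chosen with earlier results of these data known.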

Additional observations from a re-analysis of the deposited data

Results flagged for a closer look

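In 28 groups of 4 to 10 CKO libraries, 3 had a library far from the others, and chance picks about 5 percent of such groups. *Flt1* in MG was at 1448 CPM in CKO 6, with the next library at 1086 CPM. *Vegfa* in RBC was at 58.9 CPM in CKO 7, with the next CKO library at 104 CPM and the control between them at 69.8 CPM. *Vegfa* in rods was at 20.1 CPM in CKO 11, a kit version 5 library, with the next at 8.87 CPM.

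Some members differed between control and CKO libraries in opposite directions in a pair of labels. For *Vegfa* the log2 differences of CKO against control in MG, HC, GABA_AC and rods exceeded that in astrocytes by 3.08, 2.84, 2.48 and 5.75. For *Nrp1* the difference in Gly_AC exceeded that in CBC by 1.16, and for *Nrp2* that in immune cells exceeded that in Gly_AC by 2.06. The pairs of labels were picked because every CKO library lay above the control in one and below it in the other, so the exact permutation p-values (0.1 for *Vegfa*, 0.0909 for *Nrp1* and *Nrp2*) are the smallest possible by that choice and carry no weight as tests. All 4 *Vegfa* differences share the control astrocytes, with 28 UMIs, and that in rods rests on 1 control UMI.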

How the results depend on the processing

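Control and CKO libraries could not be compared as pairs, since each tissue has 1 control library. The tests of label order were paired within libraries. Of the results that answer a comparison, 34 values under an alternative kept their direction and side of the threshold, 16 moved and 1 reversed, and of the single genes 94 kept them, 17 moved, 9 reversed and 1 became stronger. The cause was not tested except where stated.

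In the retina, DESeq2 called 1 member pair and 1117 genes over all labels, against 0 and 4 in edgeR. Genes called were 8 without the kit as covariate, 7 with batch as covariate, 101 against the control's own batch and 30 without the filter on low counts. *Kdr* in MG was at a log2 difference of 0.0066 without the covariate, and *Flt1* in MG at -0.076 without it, -0.26 with batch and -0.27 in the own batch. With labels weighted alike, the whole-retina differences were -0.30 for *Vegfa*, 0.66 for *Pgf*, -0.0399 for *Kdr*, -0.0354 for *Flt1* and 0.33 for *Nrp2*. In that weighting CKO 4 entered with RGC and immune cells alone. *Vegfb* was at 0.043 without CKO 4 and 5. Neighbouring labels differed in 13 pairs with at least 50 UMIs in both, a setting chosen after seeing the data, in 0 with kit version 4 alone, which has fewer libraries, and in 50 with 5 UMIs added, where 19 more passed against the order.

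In the brain, 23 member and label pairs were past the fold, against 42 for means of per-nucleus CPM, 12 at a fold of 2 and 7 at 200 UMIs, both stricter by construction. In ECs the 3 members became 6 for per-nucleus means, with *Flt1*, *Vegfc* and *Pgf* added, and *Nrp2* had a ratio of 2.60 in nuclei without a pericyte marker UMI. The 35 list genes past the fold became 58 for per-nucleus means and 13 at a fold of 2.

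Depth limits the astrocyte values, which rest on 12 control nuclei, and the immune values of the control. With 1 control retina and 1 brain library per genotype, differences between single mice or preparations and genotype cannot be told apart. The batches do not hold both groups except the control's own, with 3 CKO libraries.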
